A study of Rattus norvegicus with 20 samples.

Results

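The genes described here are the rat Cyp2a and Cyp2b cytochromes P450, as measured in liver at postnatal day 4 by 5 probe sets. They were chosen by gene symbol, but with earlier results of these data known, so counts of calls among them are descriptive. Included were the probe sets whose platform symbol is Cyp2a1, Cyp2a2, Cyp2a3 or Cyp2b3, 1 for each. Added to these was the 1 probe set whose several symbols include Cyp2b1 or Cyp2b2. These are 5 of the 31042 probe sets tested. The last carries both Cyp2b1 and Cyp2b2, so it reports the sum of these near-identical transcripts and cannot assign a change to either. Close paralogs in the other probe sets may also cross-hybridise.

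The study gave PBDE-47, a polybrominated diphenyl ether used in flame retardants, to timed-mated Wistar Han rats (Crl:WI (Han)). Dams were gavaged daily with corn oil alone (vehicle) or with corn oil carrying 0.02, 3 or 10 mg/mL PBDE-47 at 5 mL/kg, for daily doses of 0.1, 15 and 50 mg/kg. Dosing ran through postnatal day 4 and had begun on gestation day 6. RNA of the left lateral liver lobe, 100 ng per sample, was hybridised to Affymetrix rat expression arrays, 5 arrays for each of the 4 groups, all labelled female. Whether the livers are those of dams or of pups is not in the labels, which also name no litter and no animal. All p-values thus rest on the spread among arrays of a group, part of which may be technical, and precision is limited by the number of arrays. Values are log2 RMA values (robust multi-array average), and a change is a difference of group means on that scale. A probe set is said to have risen where limma's test, adjusted over all 31042 probe sets by Benjamini and Hochberg, gave a p under 0.05.

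Cytochromes P450 of family 2 are haem monooxygenases of the endoplasmic reticulum that oxidise drugs, pollutants and steroids, with electrons from the reductase Por and from cytochrome b5. In rat liver, Cyp2b1 and Cyp2b2 are the classic phenobarbital-inducible forms, and their genes are standard readouts of the nuclear receptor CAR (Nr1i3), which shares many targets with PXR (Nr1i2). Cyp2b3 is a liver form known as constitutive rather than phenobarbital-inducible. Cyp2a1 and Cyp2a2 are liver forms that hydroxylate testosterone, Cyp2a2 being typical of adult males, while Cyp2a3 is best known from nasal and lung tissue, where it oxidises coumarin and nicotine.

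The genes lie on chromosome 1 in one cluster. In the RefSeq gene order Cyp2b1, Cyp2b2 and Cyp2b3 come first, then Cyp2b21 and Cyp2b12, then Cyp2g1, and then Cyp2a3, Cyp2a1 and Cyp2a2. The 150 bases before the annotated start of 5 of these genes are shown because the same stretch of chromosome holds genes that rose and genes that did not pass the test. They are RefSeq sequences of the GRCr8 assembly, all on the plus strand: Cyp2b1 chr1:90645969-90646118, Cyp2b2 chr1:90722131-90722280, Cyp2b3 chr1:90780342-90780491, Cyp2a3 chr1:91299434-91299583, Cyp2a1 chr1:91359128-91359277. Capitals mark matches to 5 motifs that were searched on both strands, chosen after the sequences were seen and spelled out in the sentences after them.
Cyp2b1: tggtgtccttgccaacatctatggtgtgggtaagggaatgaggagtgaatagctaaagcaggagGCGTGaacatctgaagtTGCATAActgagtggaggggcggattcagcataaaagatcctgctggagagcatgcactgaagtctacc
Cyp2b2: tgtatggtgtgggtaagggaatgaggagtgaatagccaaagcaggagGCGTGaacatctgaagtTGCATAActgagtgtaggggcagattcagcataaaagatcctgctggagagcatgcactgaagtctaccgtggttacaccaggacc
Cyp2b3: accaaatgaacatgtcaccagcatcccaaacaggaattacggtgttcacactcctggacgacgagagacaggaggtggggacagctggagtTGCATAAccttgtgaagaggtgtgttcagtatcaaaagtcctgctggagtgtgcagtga
Cyp2a3: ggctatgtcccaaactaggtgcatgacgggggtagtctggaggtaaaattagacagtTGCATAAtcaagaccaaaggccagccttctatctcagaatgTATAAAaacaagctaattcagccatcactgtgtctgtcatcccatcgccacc
Cyp2a1: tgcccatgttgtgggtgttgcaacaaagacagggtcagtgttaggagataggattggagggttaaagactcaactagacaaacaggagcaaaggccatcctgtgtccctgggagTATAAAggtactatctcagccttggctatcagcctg
TGCATAA stood in 4 of the 5 windows, those of the 3 Cyp2b genes and of Cyp2a3, against 1.31% of 33469 promoter windows of that length. It thus occurred in Cyp2b3, which did not pass the test at any dose, as well as in the genes whose probe sets rose. GCGTG was found in the Cyp2b1 and Cyp2b2 windows (18.8% of all windows), and TATAAA in those of Cyp2a3 and Cyp2a1 (8.0%). AGGTCA, held by 8.76% of all windows, and AGTTCA, held by 6.94%, matched in none of the 5, and the matches found did not overlap each other. A match is a run of letters, not a shown binding site. Bases farther upstream were not searched, so a motif missing from a window may still lie elsewhere near the gene. Where they overlap, the Cyp2b1 and Cyp2b2 windows were identical at 129 of 133 positions (97.0%).

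The comparison of each dose with vehicle asks which liver transcripts differ with exposure. The Cyp2b1/Cyp2b2 probe set and Cyp2a3 rose at 15 and at 50 mg/kg, while Cyp2b3, Cyp2a1 and Cyp2a2 did not pass the test at any dose. At 15 mg/kg 2 of the 5 probe sets passed and both rose, where limma called 0.116% of all probe sets (0.0934% higher). The count was again 2 of 5 at 50 mg/kg, where 0.934% of all were called (0.586% higher). In both comparisons these 2 also had no array that overlapped vehicle, which was so for 1.57% and 1.78% of all probe sets in that direction. At 0.1 mg/kg 0 of 5 passed (0% of all probe sets; 0 of the 5 also at an unadjusted p under 0.05, against 6.87% of all). None fell. The median change of the 5 was 0.21, 0.15 and 0.33 at 0.1, 15 and 50 mg/kg, beside medians of 0.008, 0.013 and 0.009 over all probe sets. The 3 comparisons share the vehicle arrays, so they are not independent of each other.

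**Figure D1:**
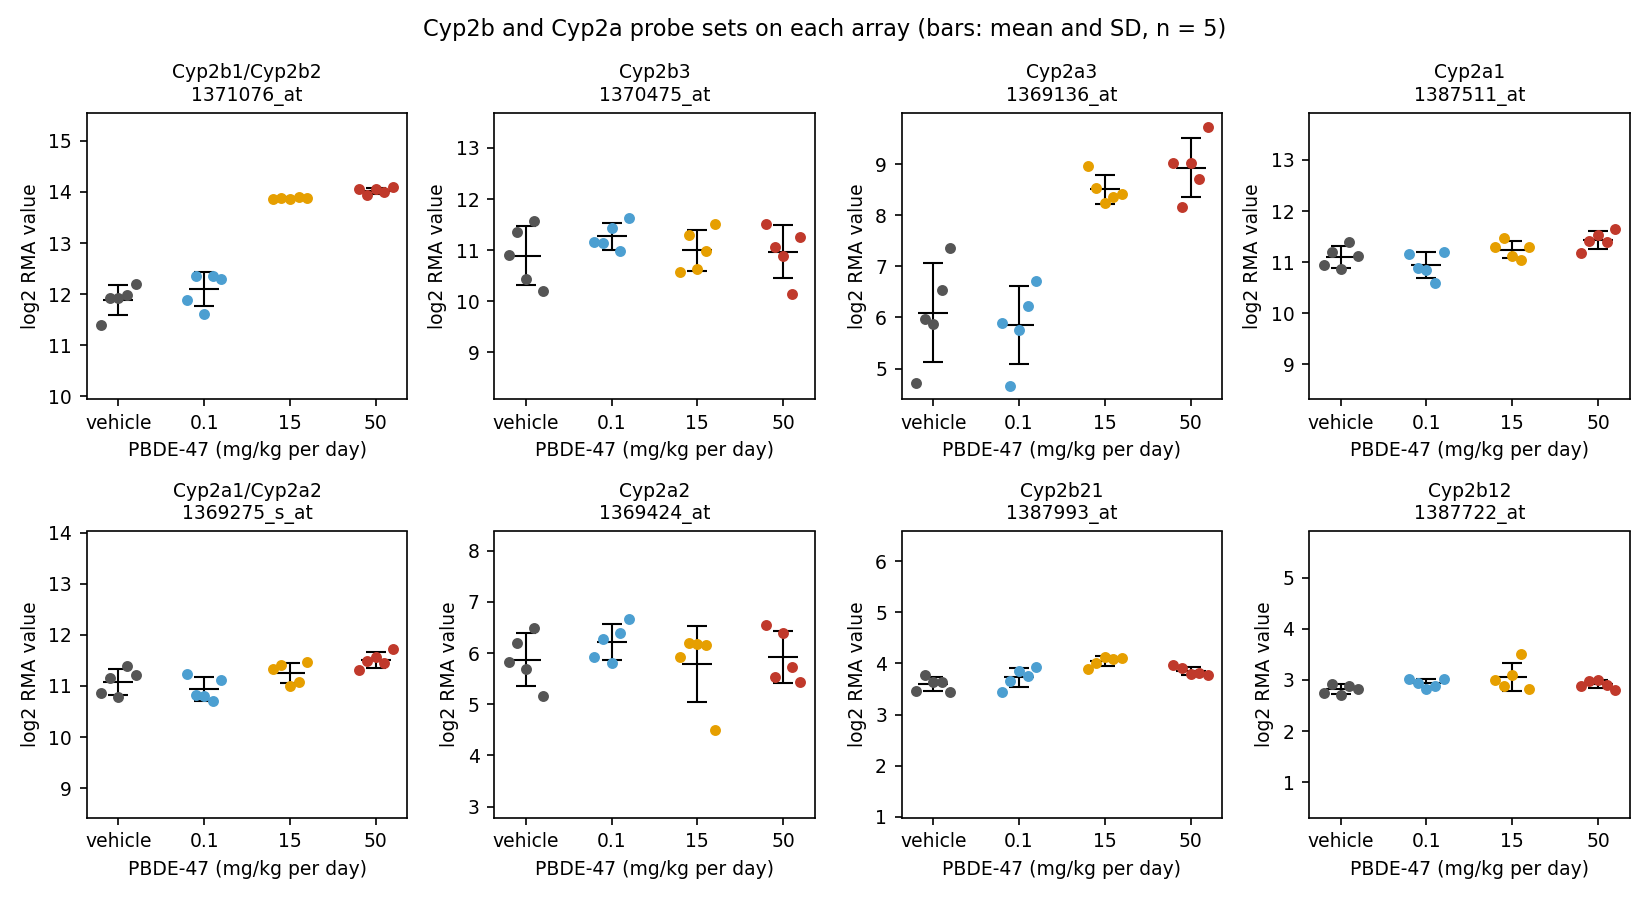
Log2 RMA value (vertical axis, of the same span in every panel) of each probe set on each array by dose in mg/kg per day, with bars for the mean and SD of 5 arrays. The Cyp2b1/Cyp2b2 and Cyp2a3 arrays at 15 and 50 mg/kg lie above every vehicle array; Cyp2b3, Cyp2a1 and Cyp2a2 overlap with vehicle at every dose.

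The Cyp2b1/Cyp2b2 probe set read 11.39, 11.92, 11.92, 11.99 and 12.20 on vehicle arrays 1 to 5 and 11.89, 12.35, 11.61, 12.36 and 12.29 on the 0.1 mg/kg arrays. At 15 mg/kg it read 13.87, 13.87, 13.86, 13.90 and 13.89, and at 50 mg/kg 14.05, 13.94, 14.05, 13.99 and 14.09. The vehicle and 0.1 mg/kg arrays were intermixed, all 10 arrays of the higher doses stood above them, and every array at 50 mg/kg was above every array at 15 mg/kg. The group means were 11.89 ± 0.297, 12.10 ± 0.334, 13.88 ± 0.0158 and 14.02 ± 0.0597 (SD, n = 5 each). These correspond to changes against vehicle of 0.21 at 0.1 mg/kg (adjusted p = 0.801), 1.99 at 15 mg/kg (SE 0.134, adjusted p = 1.06e-07) and 2.14 at 50 mg/kg (adjusted p = 1.43e-08). The rise was 3.98-fold at 15 mg/kg (95% interval 3.28 to 4.83) and 4.40-fold at 50 mg/kg (3.63 to 5.35). By p-value this probe set ranked 1 of 31042 at 15 mg/kg and 2 at 50 mg/kg.

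The spread of the Cyp2b1/Cyp2b2 probe set narrowed where its signal was bright. Its SD at 15 mg/kg was larger than that of only 0.0322% of probe sets, while its vehicle SD was larger than that of 89.5%. At 15 and 50 mg/kg its mean lay 0.897 and 0.756 log2 units below the brightest value on these arrays, against 2.89 in the vehicle group. Whether the top of the scale limited these folds was not tested. The 50 mg/kg arrays exceeded the 15 mg/kg arrays by 0.15 (95% interval -0.13 to 0.43, adjusted p = 0.913 by limma). Arrays that do not overlap in that direction were seen for 0.474% of all probe sets in this comparison, and limma called 0%. The test draws its spread from all 4 groups, 2 of which varied far more than these 2. Under 13 other settings, a limma fit of only these 2 groups among them, the difference was not called either (lowest adjusted p = 0.818).

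Cyp2a3 read 4.71, 5.98, 5.86, 6.54 and 7.35 on vehicle arrays 1 to 5 and 5.89, 4.67, 5.76, 6.23 and 6.72 on the 0.1 mg/kg arrays. At 15 mg/kg the values were 8.97, 8.53, 8.24, 8.35 and 8.42, and at 50 mg/kg 9.03, 8.16, 9.03, 8.71 and 9.73. The lower 2 groups overlapped, the higher 2 also overlapped, and the lowest array at 15 or 50 mg/kg was above the highest vehicle array. Means were 6.09 ± 0.968, 5.85 ± 0.760, 8.50 ± 0.281 and 8.93 ± 0.570 (SD, n = 5 each). Against vehicle the change was -0.24 at 0.1 mg/kg (adjusted p = 0.949), 2.41 at 15 mg/kg (SE 0.396, adjusted p = 0.0134) and 2.84 at 50 mg/kg (adjusted p = 0.000841). Cyp2a3 thus rose 5.33-fold (95% interval 3.01 to 9.44) and 7.17-fold (4.04 to 12.7). Among all probe sets its rise was the number 3 in size at both doses. Its vehicle SD exceeded that of 99.6% of probe sets, and the 0.43 between 50 and 15 mg/kg (95% interval -0.40 to 1.25, adjusted p = 0.915) was smaller than the spread.

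Vehicle array 1 was the lowest and vehicle array 5 the highest of its group for both Cyp2b1/Cyp2b2 and Cyp2a3. Over all 20 arrays, deviations of these probe sets from their group means had a Pearson r of 0.49 (permutation p = 0.113, 0.558 after adjustment over the 10 pairs of members). Spearman's rho was 0.51 (permutation p = 0.0356, adjusted 0.289). Without the 2 arrays farthest from the median, vehicle array 1 and 0.1 mg/kg array 3, r was 0.35. It ranged from 0.24 to 0.77 when each array was left out in turn: 0.24 without vehicle array 1, 0.38 without vehicle array 5 and 0.77 without 0.1 mg/kg array 2. The relation did not pass the adjusted test, and neither did any of the other 9 pairs. All probe sets on an array share its RNA sample and its scaling.

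**Figure D2:**
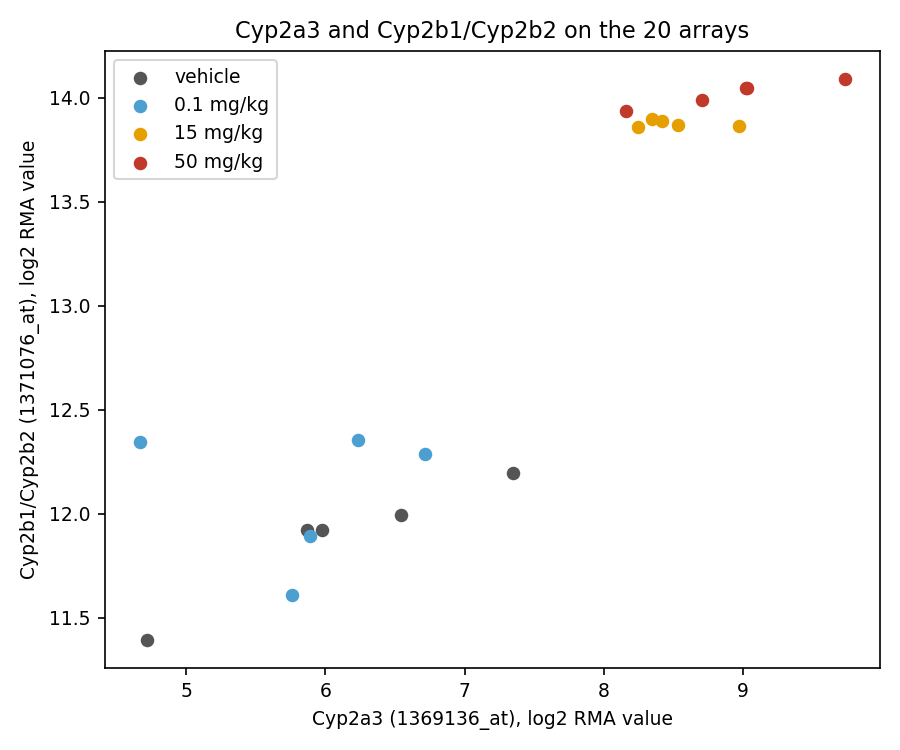
Log2 RMA value of the Cyp2b1/Cyp2b2 probe set (vertical axis) against that of Cyp2a3 (horizontal axis) on each of the 20 arrays, coloured by dose. The 15 and 50 mg/kg arrays form a group at the upper right, apart from the intermixed vehicle and 0.1 mg/kg arrays; 2 arrays at 50 mg/kg coincide at 9.03 and 14.05.

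Cyp2b3 read 10.91, 11.35, 10.43, 11.58 and 10.21 on vehicle arrays 1 to 5 and 11.15, 11.14, 11.44, 10.99 and 11.63 at 0.1 mg/kg. It read 10.56, 11.30, 10.64, 10.98 and 11.50 at 15 mg/kg and 11.51, 11.07, 10.88, 10.14 and 11.26 at 50 mg/kg. All 4 groups overlapped, and the lowest array of all was at 50 mg/kg. The change was 0.38 at 0.1 mg/kg (adjusted p = 0.824), 0.10 at 15 mg/kg (95% interval -0.45 to 0.65, adjusted p = 0.906) and 0.08 at 50 mg/kg (-0.47 to 0.63, adjusted p = 0.939). These intervals lie below the change of the Cyp2b1/Cyp2b2 probe set at the same doses. They do not show that Cyp2b3 was unchanged, since its vehicle SD of 0.583 exceeded that of 98.6% of probe sets.

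The Cyp2a1 probe set read 10.95, 11.20, 10.86, 11.39 and 11.11 on vehicle arrays 1 to 5 and 11.16, 10.89, 10.85, 10.59 and 11.21 at 0.1 mg/kg. Its values were 11.30, 11.47, 11.13, 11.04 and 11.30 at 15 mg/kg and 11.18, 11.42, 11.52, 11.39 and 11.65 at 50 mg/kg. At 50 mg/kg 4 of 5 arrays stood above every vehicle array, and array 1 fell within the vehicle range. Its change was -0.16 at 0.1 mg/kg (adjusted p = 0.842), 0.15 at 15 mg/kg (adjusted p = 0.654) and 0.33 at 50 mg/kg (95% interval 0.08 to 0.59). The last had an unadjusted limma p of 0.0133 and an adjusted p of 0.236, so it did not pass. Against 0.1 mg/kg, the difference at 50 mg/kg was 0.49 (adjusted p = 0.0798). It was called with a filter at a mean of 6 and with array weights (lowest adjusted p = 0.0408), and in none of the 20 fits without 1 array.

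A further probe set carries both Cyp2a1 and Cyp2a2. It falls outside the symbol rule and was added after its values were seen. The platform lists the same target sequence for it and for the Cyp2a1 probe set, so it is not an independent reading. On every array it lay within 0.159 log2 units of the Cyp2a1 probe set. At 50 mg/kg it read 11.30, 11.49, 11.57, 11.45 and 11.73, and on the vehicle arrays 10.87, 11.15, 10.79, 11.40 and 11.21. Here too 4 of 5 arrays at 50 mg/kg were above all vehicle arrays (change 0.43, adjusted p = 0.126). Against 0.1 mg/kg its rise of 0.57 at 50 mg/kg passed (adjusted p = 0.0401). That call was lost in 10 of the 20 fits that left out 1 array and under 6 of 13 other settings, so it depends on the fit.

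Cyp2a2 read 5.83, 6.20, 5.70, 6.49 and 5.16 on vehicle arrays 1 to 5 and 5.92, 6.28, 5.82, 6.40 and 6.67 at 0.1 mg/kg. Values of 5.92, 6.20, 6.17, 6.15 and 4.49 were found at 15 mg/kg, and of 6.54, 5.53, 6.39, 5.73 and 5.44 at 50 mg/kg. The groups overlapped throughout, with array 5 at 15 mg/kg far below the other 4 of its group. The change was 0.34 at 0.1 mg/kg (adjusted p = 0.877), -0.09 at 15 mg/kg (95% interval -0.74 to 0.56, adjusted p = 0.933) and 0.05 at 50 mg/kg (-0.60 to 0.70, adjusted p = 0.968). Without array 5 at 15 mg/kg, the change at that dose was 0.24. The vehicle mean of Cyp2a2, 5.87, exceeded that of only 53.2% of probe sets, and its vehicle SD of 0.509 exceeded that of 97.9%. With so modest a signal and so wide a spread, the absent calls do not show that Cyp2a2 was unchanged.

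**Figure D3:**
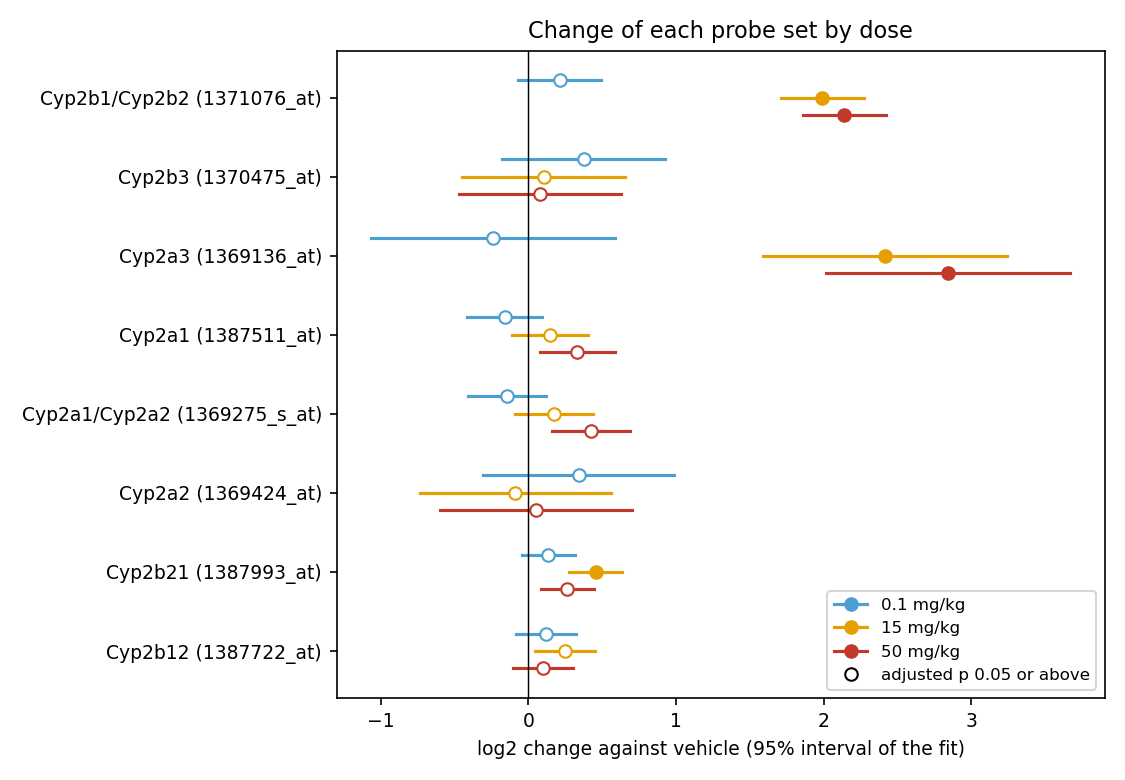
Log2 change of each probe set against vehicle (horizontal axis, with the 95% interval of the fit, n = 5 arrays per group) at 0.1, 15 and 50 mg/kg; filled points have an adjusted p under 0.05. The Cyp2b1/Cyp2b2 and Cyp2a3 probe sets are filled at 15 and 50 mg/kg, as is Cyp2b21 at 15 mg/kg (0.46).

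Unequal responses of the paralogs were tested directly, as the within-array difference of 2 probe sets between dose and vehicle (exact two-sided permutation test, 10 pairs per dose, smallest possible p 0.00794). At 15 and at 50 mg/kg 6 of the 10 pairs differed, all of them pairs of Cyp2b1/Cyp2b2 or Cyp2a3 with Cyp2b3, Cyp2a1 or Cyp2a2. The pairs share probe sets and arrays, so these 6 are not independent of each other or of the calls against vehicle. At 15 mg/kg the count was 5 without array 1, 2 or 5 of that dose, where Cyp2a3 minus Cyp2a2 was no longer called (exact permutation, adjusted p = 0.0529, from 0.0397). The Cyp2b1/Cyp2b2 change at 50 mg/kg exceeded that of Cyp2b3 by 2.06 (95% interval 1.17 to 2.95, exact permutation, adjusted p = 0.0159). The Cyp2a3 change exceeded that of Cyp2a1 by 2.51 (1.46 to 3.56, adjusted p = 0.0159, exact permutation). Within both subfamilies, then, members differed in response on these arrays.

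The 2 responding probe sets were not shown to differ from each other. The Cyp2b1/Cyp2b2 change minus the Cyp2a3 change was -0.42 at 15 mg/kg (95% interval -1.19 to 0.35, exact permutation, adjusted p = 0.408). For 50 mg/kg it was -0.70 (-1.59 to 0.18, exact permutation, adjusted p = 0.170). Without vehicle array 5, on which Cyp2a3 was highest, the latter difference was -0.94 (adjusted p = 0.0454, exact permutation). The intervals leave room for a difference of over 1 log2 unit, and the Cyp2b1/Cyp2b2 signal lies nearer the top of the scale than that of Cyp2a3.

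Among the 3 probe sets with no call against vehicle, no pair passed this test. Cyp2b3 minus Cyp2a1 at 50 mg/kg was -0.25 (95% interval -1.01 to 0.50), Cyp2b3 minus Cyp2a2 was 0.03 (-0.64 to 0.70) and Cyp2a1 minus Cyp2a2 was 0.28 (-0.50 to 1.06).

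Set against 0.1 mg/kg in place of vehicle, 15 mg/kg again gave 2 of 5 probe sets that rose, where 0.0902% of all were called (0.087% higher). Cyp2b1/Cyp2b2 was higher by 1.78 (adjusted p = 4.12e-07) and Cyp2a3 by 2.65 (adjusted p = 0.00419). At 50 against 0.1 mg/kg the same 2 probe sets rose, by 1.93 (adjusted p = 6.55e-08) and 3.08 (adjusted p = 0.000294), where 0.644% of all were called (0.583% higher). Both comparisons share arrays with those above. For these 2 probe sets all 5 arrays of each higher dose stood above all 5 at 0.1 mg/kg, as did 0.899% of all probe sets at 15 mg/kg and 1.83% at 50 mg/kg. At 50 against 15 mg/kg 0 of 5 passed, against 0% of all probe sets called. At an unadjusted p under 0.05 it was also 0 of 5, against 5.63% of all probe sets.

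Some arrays held more skeletal muscle or exocrine pancreas transcripts than others, and the source of these transcripts was not tested. The hepatocyte list (7 of 8 markers measured, among them Alb and Ttr) had a mean of 14.16 to 14.28 on every array. Its markers had group means of 13.91 to 14.78, near the highest value in the data, 14.82. Whether the top of the scale hid differences in hepatocyte share was not tested. The fetal liver list (5 of 5 measured, among them Afp and Igf2) had array means of 11.24 to 11.83. Its group means of single markers ran from 6.27 to 14.31. The erythroid list (6 of 8 measured) had array means of 9.28 to 11.37. Whether these lists tell livers of pups from those of dams was not tested. The skeletal muscle list mean ran from 4.05 to 9.89 and the exocrine pancreas list mean from 4.64 to 7.47. One or the other was over 2 log2 units above its lowest array on 1 vehicle array, 4 arrays at 0.1 mg/kg, 2 at 15 mg/kg and 3 at 50 mg/kg. Among the responding members, Cyp2b1/Cyp2b2 at 15 mg/kg read 13.86 to 13.89 on the 2 arrays with such transcripts and 13.87 to 13.90 on the other 3. Cyp2a3 at 50 mg/kg read 8.71 to 9.03 on the 3 with them and 8.16 to 9.73 on the 2 without. Values did separate for Cyp2a2 at 50 mg/kg, which read 5.73 to 6.54 on the 3 arrays with them and 5.44 to 5.53 on the 2 without. At 0.1 mg/kg, Cyp2b1/Cyp2b2 read 11.89 to 12.36 on the 4 arrays with them and 11.61 on the 1 without, and Cyp2a2 5.92 to 6.67 and 5.82. The part of these transcripts in the values was not tested. Leaving all such arrays out kept 4, 1, 3 and 2 arrays in the groups. Most of all probe sets called at 15 and 50 mg/kg then lost their call. Cyp2b1/Cyp2b2 was still called, while Cyp2a3 kept its size, 2.50 and 2.83, with adjusted p of 0.399 and 0.277. Against the single 0.1 mg/kg array left, whose spread was taken from the other groups, 0 members and 0 of all probe sets were called. Cyp2b1/Cyp2b2 was then 2.27 higher at 15 mg/kg and 2.41 at 50 mg/kg (adjusted p = 0.0907 for both), and Cyp2a3 2.86 and 3.19 higher (adjusted p = 1.00 and 0.935).

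The Kupffer cell list (7 of 9 markers measured) had medians of 9.90, 9.80, 9.63 and 9.48 from vehicle to 50 mg/kg, with ranges of 9.86 to 10.01, 9.53 to 10.04, 9.61 to 9.92 and 9.21 to 9.59. Its part in the results was not tested, and in whole liver fewer cells of a type and less RNA per cell cannot be told apart. The airway and lung epithelium list, of tissues where Cyp2a3 is known to be expressed, stayed between 3.87 and 4.62 on all arrays, with all 6 markers measured. Arrays were also compared within the leading digit of the 4-digit number in their descriptions, whose meaning the labels do not give. Dose minus vehicle was above 0 in 4 of 4 digits for Cyp2b1/Cyp2b2 (1.69 to 2.47 at 15 mg/kg, 1.90 to 2.66 at 50) and for Cyp2a3 (1.07 to 4.25 and 2.17 to 4.31). Cyp2b3 (-0.77 to 1.29 at 15 mg/kg, -1.44 to 1.05 at 50) and Cyp2a2 (-0.67 to 0.25, -0.76 to 0.71) had both signs. Cyp2a1 had both signs at 15 mg/kg (-0.30 to 0.44) but was above 0 in 4 of 4 digits at 50 mg/kg (0.0082 to 0.54), so a constant sign was not limited to the members that rose. Each of these values rests on 1 or 2 arrays a group.

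Along the chromosome, the responding members stood among genes with small changes. Of 21 other RefSeq genes in and beside the cluster, 8 had a probe set of their own, with changes at 50 mg/kg between -0.27 and 0.38. Cyp2b12, Cyp2b21, Cyp2g1 and Cyp2s1 had low vehicle means of 2.82, 3.59, 4.45 and 4.97, where a small change says little about the gene. The vehicle means of Axl, Cyp2f4, Cyp2t1 and Egln2 lay between 7.29 and 9.58. None, 0 of these 8, passed limma's test at 50 mg/kg, where 0.934% of all probe sets were called (3 at an unadjusted p under 0.05, against 13.0% of all). At 15 mg/kg 1 did, Cyp2b21, where 0.116% of all were called. Their median change was 0.13 at 15 mg/kg and 0.09 at 50 mg/kg, against 0.013 and 0.009 over all probe sets. Cyp2a3 lies next to Cyp2a1 on one side, and on the other Cyp2g1, an olfactory P450, is its nearest measured neighbour.

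Cyp2b21 and Cyp2b12, known from tissues outside the liver, belong to the Cyp2b subfamily but not to the symbol rule, and were singled out after their values were seen. Cyp2b21 read 3.47, 3.77, 3.64, 3.63 and 3.44 on vehicle arrays 1 to 5 and 3.89, 4.01, 4.12, 4.10 and 4.12 at 15 mg/kg, with no overlap (seen upward for 1.57% of all probe sets, and for the 2 members that rose). Its values of 3.97, 3.91, 3.80, 3.82 and 3.77 at 50 mg/kg overlapped vehicle by a small margin at array 5. All these values are near the bottom of the scale, where background makes up much of the signal. Its rise of 0.46 at 15 mg/kg (SE 0.0863, adjusted p = 0.0355) lost its call in 11 of the 20 fits without 1 array and under 7 of 11 other settings. The 50 mg/kg mean was 0.26 higher (adjusted p = 0.180). Cyp2b12 was 0.25 higher at 15 mg/kg (adjusted p = 0.328) and 0.10 at 50 mg/kg (adjusted p = 0.741), from a vehicle mean of 2.82 ± 0.0981 (SD, n = 5).

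**Figure D4:**
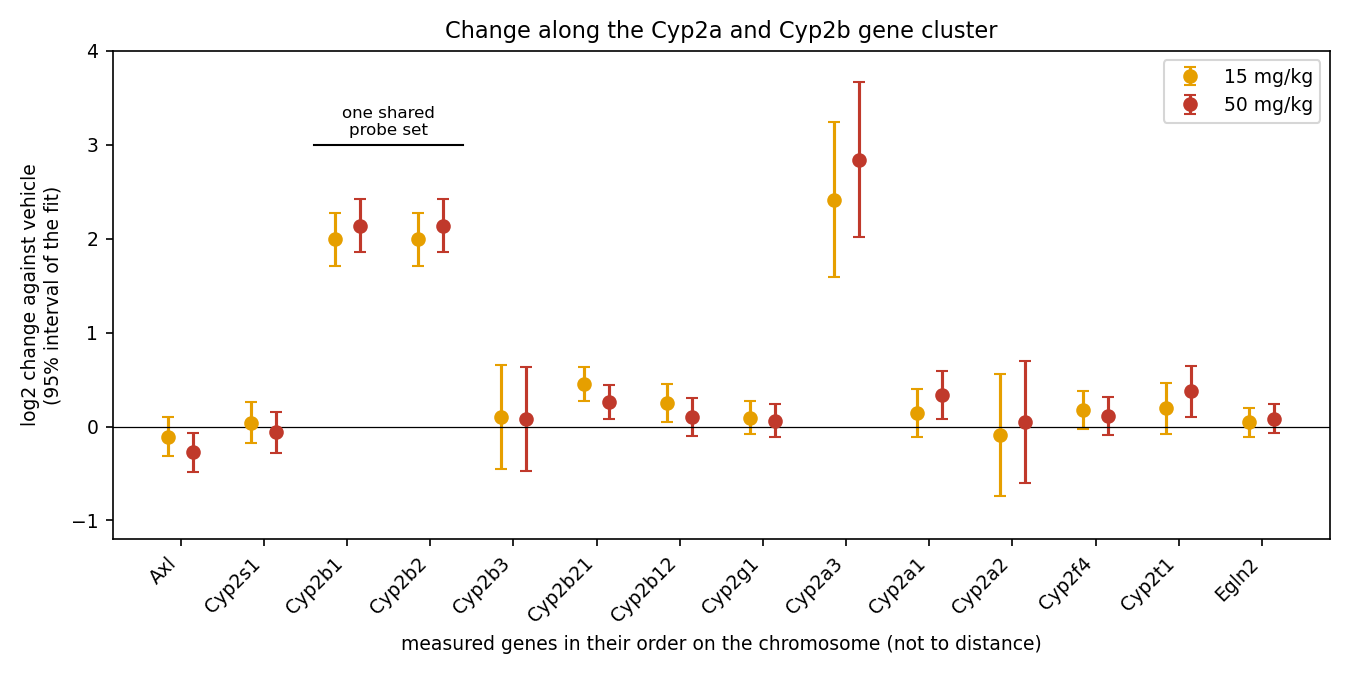
Log2 change against vehicle (vertical axis, 95% interval of the fit, 5 arrays per group) at 15 and 50 mg/kg for the measured genes in their order along the chromosome, not to distance; Cyp2b1 and Cyp2b2 show the same shared probe set. Only Cyp2b1/Cyp2b2 and Cyp2a3 have intervals above 1, and no other gene drawn exceeds 0.46.

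Other known targets of CAR and PXR were read beside the members, from a list of 35 genes of which 27 were measured. Like the other lists here, that list was chosen with earlier results of these data known, so its counts and medians are descriptive. At 15 mg/kg 8 rose (0.0934% of all probe sets did) and at 50 mg/kg 14 rose (0.586% of all), with 0 that fell. At 0.1 mg/kg 0 were called (0% of all), and 2 had an unadjusted p under 0.05 by limma, against 6.87% of all probe sets. Median changes were 0.56 and 0.80 at 15 and 50 mg/kg, against 0.013 and 0.009 over all probe sets. Cyp2c6v1, a phenobarbital-responsive P450, rose by 1.75 and 1.80 (adjusted p = 3.64e-07 and 1.49e-07). Alas1, the rate-limiting enzyme of haem synthesis, rose by 0.83 and 1.52 (adjusted p = 0.0212 and 1.35e-05), and Ephx1, the microsomal epoxide hydrolase, by 0.83 and 1.19 (adjusted p = 0.00543 and 3.81e-05). Cyp2c7, a retinoid-oxidising P450, rose by 2.52 and 3.21 (adjusted p = 0.00252 and 4.93e-05). The count at 15 mg/kg was 5 without vehicle array 4, without 15 mg/kg array 4 or without 15 mg/kg array 5. Without the arrays that held muscle or pancreas transcripts, all genes of the list but Cyp2c6v1 lost their call at each dose. Most of all probe sets called before lost theirs as well, with fewer arrays in the fit. The list medians were then 0.62 and 0.70.

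The regulators themselves gave no call. Of 23 measured genes of 25 listed as receptors or coregulators of these promoters, 0 passed limma's test at any dose. At 0.1, 15 and 50 mg/kg, 0%, 0.116% and 0.934% of all probe sets were called. At an unadjusted p under 0.05 there were 2, 2 and 5 of the 23, against 6.87%, 12.1% and 13.0% of all probe sets. The smallest p at 50 mg/kg were those of Ahr, the aryl hydrocarbon receptor (0.66, adjusted p = 0.123), the coactivator Ncoa6 (-0.24, adjusted p = 0.230), Rxrb, a partner of nuclear receptors (-0.16, adjusted p = 0.315), and Foxa2, a liver transcription factor (0.39, adjusted p = 0.333). Their transcript levels do not measure receptor activity.

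Electron transfer partners of the P450s were 6 genes, all measured. Of these, 0 passed at 15 mg/kg, where 0.116% of all probe sets were called (2 at an unadjusted p under 0.05, against 12.1% of all). At 50 mg/kg 2 rose, as did 0.586% of all probe sets. Cyb5a, cytochrome b5, rose by 0.30 (SE 0.0548, adjusted p = 0.00950) and Por, the reductase that also stands in the CAR and PXR list, by 0.82 (adjusted p = 0.0186). Pgrmc1, a haem-binding P450 partner, was 0.29 higher (adjusted p = 0.153) and Cyb5r3, which reduces cytochrome b5, 0.16 higher (adjusted p = 0.622). Only 1 of the 6 was called at 50 mg/kg without vehicle array 2, 3 or 4 or without 50 mg/kg array 4 or 5. Without the arrays that held muscle or pancreas transcripts, Cyb5a and Por lost their call, as did most of all probe sets called at that dose.

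**Figure D5:**
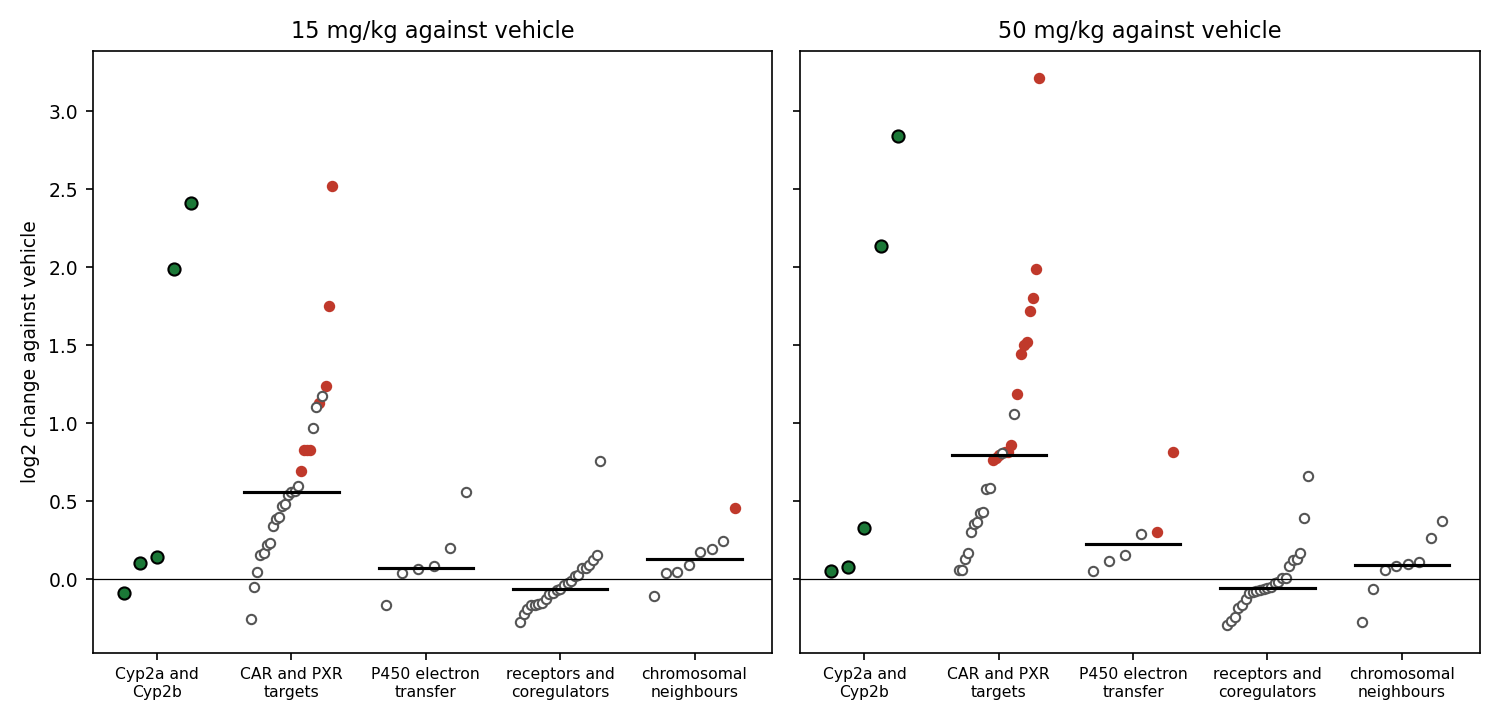
Log2 change against vehicle (vertical axis) of each gene at 15 mg/kg (left) and 50 mg/kg (right), for the 5 member probe sets (green) and for 4 gene lists, with the median of each list as a bar; red points rose and open points did not pass the test. The CAR and PXR targets lie mostly above 0, with medians of 0.56 and 0.80, and the regulators lie around 0.

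Other probe sets whose symbol starts with Cyp2 numbered 27, and 21 of them were of P450 family 2 proper. Those that rose were Cyp2c6v1, Cyp2c7, Cyp2c11 and Cyp2b21 at 15 mg/kg and Cyp2c6v1, Cyp2c7, Cyp2c11 and Cyp2d4 at 50 mg/kg. Over all probe sets 0.0934% rose at 15 mg/kg and 0.586% at 50 mg/kg. Cyp2c11, known as a male-typical form of adult liver, rose by 0.73 and 0.79 (adjusted p = 0.0212 and 0.00311), and Cyp2d4 rose by 0.29 at 50 mg/kg (adjusted p = 0.0292). The median of the 21 was 0.20 at 15 mg/kg and 0.27 at 50 mg/kg. At 15 mg/kg the count was 2 without vehicle array 3, 4 or 5 or without 15 mg/kg array 4 or 5. Without the arrays that held muscle or pancreas transcripts, only Cyp2c6v1 kept its call at either dose. Most of all probe sets called before lost theirs in that fit.

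The single-symbol probe sets nearest in pattern to the responding members were found by the root mean square, over the 20 arrays, of the difference in log2 value after each probe set's vehicle mean was subtracted. Nearest to Cyp2b1/Cyp2b2 were Cyp2c6v1 (0.372), the organic anion exporter Abcc3 (0.558), the glucuronosyltransferase Ugt2b10 (0.573), the homeobox gene Meox2 (0.587) and the starch-binding protein Stbd1 (0.628), where the probe set's own departure from its vehicle mean was 1.48. Nearest to Cyp2a3 were Cyp2c7 (0.772), Cyp1a1, the P450 best known as a target of the aryl hydrocarbon receptor (0.785), Cyp2c6v1 (0.880), Abcc3 (1.04) and Meox2 (1.10), against an own departure of 1.97. Cyp1a1 changed by 2.50 at 15 mg/kg and 3.46 at 50 mg/kg, beside 2.41 and 2.84 for Cyp2a3. The measure takes in both the dose response and the scatter of single arrays.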

How the data were processed

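The authors summarised the 20 arrays of liver RNA with RMA, per the submitters' processing notes, and the deposited values of the 31099 probe sets are on a log2 scale. The RMA version is not given in the sources used here. Group and replicate number came from each title. Tested without a filter were 31042 probe sets, all but 57 controls. Symbols are those of GEO's platform annotation (20826 probe sets with 1 symbol, 436 with several, 9780 with none here); 20758 were matched by gene ID to RefSeq genes of GRCr8. RefSeq promoter sequences were found for 5 of the 6 member genes.

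One model with a mean per group was fitted with limma 3.58.1 (lmFit and eBayes) in R 4.3.3. All tests are two-sided, and adjusted p-values are Benjamini and Hochberg's per comparison, called under 0.05; R/maanova, which the design text names, was not used here. Intervals are 95% intervals: those of pair differences take the pooled spread of the 10 arrays compared. Correlations used 100000 permutations within groups. The code was tested on simulated data. Members and lists were chosen with earlier results of these data known. For a list gene, the brightest probe set carrying its symbol alone was used. Named are all members, at most 4 genes of a list (smallest p at 50 mg/kg), the 5 nearest patterns to each responding member, measured genes of the cluster where a result turns on them, and, added after values were seen, Cyp2c11, Cyp2b21, Cyp2b12 and the shared Cyp2a probe set. Alternatives were blocks, other normalizations, filters, variance models, array weights and left-out arrays. Figures used matplotlib 3.10.9 in Python 3.11.15, and scipy 1.17.1 served the exact tests.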

Additional observations from a re-analysis of the deposited data

Results flagged for a closer look

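Of 32 groups of 5 arrays (8 probe sets in 4 dose groups), 1 held an array far from the other 4: Cyp2a2 at 15 mg/kg, where array 5 read 4.49 and the other 4 lay between 5.92 and 6.20. Its gap to the nearest array was 0.837 of the group's range. A group of 5 is marked here where that share is above 0.71, which chance alone gives in about 1 of 20 groups. The 1 mark among 32 groups is thus not more than that rate. Array 5 at 15 mg/kg also held pancreas transcripts (list mean 7.47), and their part in this value was not tested. Array 3 of that group, with a pancreas list mean of 7.38, read 6.17 for Cyp2a2.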

How the results depend on the processing

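The count of 2 members called at 15 and at 50 mg/kg was 2 in each of the 20 fits without 1 array, and so it was against 0.1 mg/kg. It was 1 at 15 mg/kg with only the 2 groups compared in the fit (Cyp2a3 2.41, adjusted p = 0.0791). Without the arrays that held muscle or pancreas transcripts it was 1 at 15 and 1 at 50 mg/kg (Cyp2a3 2.50 and 2.83), and 0 at 15 and at 50 against 0.1 mg/kg, where 1 array was left at 0.1 mg/kg, 0 of all probe sets were called and Cyp2b1/Cyp2b2 was 2.27 and 2.41. Fewer arrays stand behind those values. At 50 against 0.1 mg/kg it was 3 with a filter at a mean of 6 or array weights, with Cyp2a1 added. Without single arrays, Cyp2a3 ranged from 2.07 to 2.73 at 15 mg/kg (adjusted p 0.00243 to 0.0473) and from 2.50 to 3.16 at 50 mg/kg, and Cyp2b1/Cyp2b2 from 1.87 to 2.07 and 2.02 to 2.22.

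The replicate numbers did not pair the arrays: same-numbered arrays had deviation correlations of -0.362 to 0.288 (median 0.001, over 0.1 in 10 of 30). With the replicate block limma still called 2 members at 15 and 2 at 50 mg/kg. In the pairwise exact tests, where 5 to 6 pairs were called at 15 mg/kg and 6 to 7 at 50 without single arrays, 0 pairs were called at 15 and 0 at 50 mg/kg under the block, since 5 pairs cannot give a p below 0.0625.

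Values near 0 changed sign. Without the muscle or pancreas arrays Cyp2b1/Cyp2b2 was -0.27 at 0.1 mg/kg, Cyp2a2 was 0.30 at 15 and -0.31 at 50 mg/kg, -0.61 at 50 against 15 and 0.28 at 15 against 0.1 mg/kg, Cyp2b3 was 0.22 at 50 against 15, and at 50 against 0.1 mg/kg Cyp2b21 was -0.016 and Cyp2b12 0.060. With muscle, pancreas and erythroid covariates Cyp2a2 was 0.14 at 15 mg/kg and -0.11 at 50 against 15. With array weights Cyp2b3 was -0.044 at 15 and -0.065 at 50 mg/kg and Cyp2a2 -0.015 at 50; with equal medians Cyp2b12 was 0.0020 at 50 against 0.1. The causes were not tested.

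Without single arrays the ranges that crossed 0 were, at 0.1 mg/kg, -0.58 to 0.079 for Cyp2a3; at 15 mg/kg, -0.068 to 0.27 for Cyp2b3 and -0.27 to 0.24 for Cyp2a2; at 50 mg/kg, -0.093 to 0.29 and -0.13 to 0.21; at 50 against 15, -0.16 to 0.18 and -0.19 to 0.26; and for Cyp2b12 at 50 against 0.1, -0.048 to 0.0058. Pair differences that crossed 0 were Cyp2b3 minus Cyp2a1 (-0.22 to 0.078), Cyp2b3 minus Cyp2a2 (-0.26 to 0.38) and Cyp2a1 minus Cyp2a2 (-0.10 to 0.42) at 15 mg/kg, and Cyp2b3 minus Cyp2a2 (-0.17 to 0.19) at 50.

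List counts without single arrays were 5 to 9 (15 mg/kg) and 12 to 16 (50) for CAR and PXR targets. They were 2 to 4 and 3 to 4 for other Cyp2 genes. Electron transfer partners had 1 to 2 at 50 and neighbours 0 to 1 at 15. Without the muscle or pancreas arrays these counts, in the same order, were 1, 1, 1, 1, 0 and 0. Over all probe sets, 36 and 290 calls at 15 and 50 mg/kg became 3 and 3 without those arrays, 11 and 89 with 2 groups, 14 to 44 and 106 to 276 without 1 array, and 137 at 50 with adjustment over all contrasts. The correlation of Cyp2b1/Cyp2b2 with Cyp2a3 was 0.32 with the description digit removed and 0.89 without the muscle or pancreas arrays.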
